A study of Mus musculus with 9 samples.

Results

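The immunity-related GTPases described here are Igtp, Irgm1, Irgm2 and Iigp1, measured on Affymetrix mouse arrays in dendritic cells cultured from bone marrow. Members were all probe sets that the platform annotation gives to 1 of these symbols alone, which found 5 of the 45101 probe sets on the array. Igtp, Irgm1 and Irgm2 had 1 each and Iigp1 had 2. All 5 passed the filter on low signals, so the 4 genes were among the 12586 genes tested. The 9 arrays form 3 groups of 3, all from mice on the 129/SvEv background and all grown with GM-CSF for 9 to 12 days. WT media were wild-type cells without stimulation. WT tumor DNA were wild-type cells given purified DNA of tumor cells with a lipid transfection reagent for 7 h. STING tumor DNA were STING knockout cells given the same stimulus, where STING is the adaptor protein downstream of the cytosolic DNA sensor. Unstimulated knockout cells and a reagent-only control were not analysed here, so in the stimulated groups the DNA and the reagent cannot be told apart. The labels do not say which mice or cultures the 3 arrays of a group came from, so the spread that the p-values rest on may be technical. Of 9 dendritic cell markers on the array, Itgax read 4108 to 6174, Cd74 16325 to 23790 and H2-Ab1 10798 to 23519 over all arrays. Some others read low, Zbtb46 at 54.1 to 226, Cd209a at 17.6 to 184 and Flt3, which did not pass the filter, at 5.74 to 55.1. The macrophage markers Csf1r and Adgre1 read 18290 to 24868 and 3118 to 8312.

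Immunity-related GTPases are proteins that interferons induce in mouse cells and that act on the membranes around intracellular parasites and bacteria. Iigp1 (Irga6) is an effector: it binds GTP, assembles on the vacuole of Toxoplasma or the inclusion of Chlamydia, and takes part in breaking that membrane. Igtp (Irgm3), Irgm1 and Irgm2 are the regulatory members, which sit on the cell's own membranes and keep effectors inactive there, and Irgm1 is also known for its part in autophagy and in resistance to mycobacteria. Interferon reaches such genes through transcription factors that bind the GAS element or, as IRF proteins do, the ISRE element.

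In RefSeq's annotation of GRCm38.p6 the regulatory members lie on chromosome 11, where Igtp and Irgm2 are direct neighbours with Gm12250, another gene of the family, before them. Irgm1 lies elsewhere on it. Promoter windows were matched for 3 of the 4 members, the regulatory ones, and the 250 bases before the annotated start are printed for these. Moving together on the arrays did not set them apart, as Iigp1 correlated with them at r = 0.985 to 0.991 over the 9 arrays. The windows are chr11:58199306-58199555 on the + strand for Igtp, chr11:58214727-58214976 on the + strand for Irgm2 and chr11:48871421-48871670 on the - strand for Irgm1. Capitals mark matches to an ISRE core (GAAA, any 2 bases, GAAA) or to the GAS motif (TTCNNNGAA), searched on both strands.
Igtp: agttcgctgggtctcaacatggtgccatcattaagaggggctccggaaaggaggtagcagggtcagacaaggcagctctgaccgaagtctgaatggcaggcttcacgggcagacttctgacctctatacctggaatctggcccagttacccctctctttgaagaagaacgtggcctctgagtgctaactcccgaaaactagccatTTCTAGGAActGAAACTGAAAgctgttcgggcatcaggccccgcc
Irgm2: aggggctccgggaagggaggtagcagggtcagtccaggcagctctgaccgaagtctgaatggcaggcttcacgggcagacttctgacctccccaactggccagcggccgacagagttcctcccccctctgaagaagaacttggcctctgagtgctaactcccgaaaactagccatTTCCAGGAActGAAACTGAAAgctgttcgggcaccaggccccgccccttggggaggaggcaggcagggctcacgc
Irgm1: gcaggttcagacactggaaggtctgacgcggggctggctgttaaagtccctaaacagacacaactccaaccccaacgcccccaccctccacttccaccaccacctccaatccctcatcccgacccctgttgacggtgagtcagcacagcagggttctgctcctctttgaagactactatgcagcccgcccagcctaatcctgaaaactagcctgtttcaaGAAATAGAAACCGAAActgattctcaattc

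The Igtp window holds GAAACTGAAA from 34 to 25 bases before the start and TTCTAGGAA from 45 to 37 bases before it. In the Irgm2 window the same ISRE match lies 64 to 55 bases before the start, with TTCCAGGAA at 75 to 67 bases. Aligned on that match, Igtp and Irgm2 were identical at 62 of 64 bases, a count that includes the matched bases themselves. The Irgm1 window holds the ISRE core at a pair of overlapping places, GAAATAGAAA at 30 to 21 bases and GAAACCGAAA at 24 to 15 bases before the start, and no GAS match in these letters. Of 32851 mouse promoter windows of the same length, 2.98% hold the ISRE core, 7.02% the GAS motif and 0.332% both. A match describes the letters only and was not tested as a binding site.

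All 4 GTPase genes rose in wild-type cells given tumor DNA, the comparison that asks which transcripts differ after the stimulus. Values are MAS5 signals, a linear brightness per probe set that the authors scaled to a common level on each array. Igtp read 3186, 1939 and 3077 in the WT media arrays 1, 2 and 3 and 19066, 18805 and 19660.5 in the WT tumor DNA arrays. Its 3 stimulated arrays lay far above the media arrays and within a factor of 1.05 of each other. On the log2(signal + 16) scale, on which all differences below are given, Igtp rose by 2.84 ± 0.42 (SE, n = 3 per group, limma adjusted p = 0.0013), or 7.15-fold. The limma SEs rest on a spread per gene shared by all 3 groups, the knockout included. For Igtp the log2 standard deviation was 0.40 in media, 0.033 with DNA and 1.03 in the knockout. Fitting only the 2 wild-type groups gave an SE of 0.20 for its rise.

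Irgm1 read 3027, 2397 and 3619.6 in media and 18232, 15311.5 and 16241 with DNA. The groups were again apart, and the rise was 2.47 ± 0.48 (limma adjusted p = 0.0040). Irgm2 read 2377, 1422 and 2033 in media and 10953.5, 9118 and 10116 with DNA. It rose by 2.39 ± 0.55 (limma adjusted p = 0.0088), so the regulatory members rose 5.24-fold to 7.15-fold. The effector Iigp1 read 2719, 896 and 1546 in media and 27698, 23232 and 25141 with DNA. Its rise of 4.01 ± 0.69 (limma adjusted p = 0.0026), or 16.1-fold, ranked 18th among the 12586 genes, with Igtp at rank 82, Irgm1 at 118 and Irgm2 at 128. The second Iigp1 probe set, which reads the same gene and is no replicate, went from 475 to 1055 in media to 16071.5 to 19024 with DNA, a difference of 4.52 ± 0.61 (limma adjusted p = 0.00089 over 27022 probe sets).

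**Figure D1:**
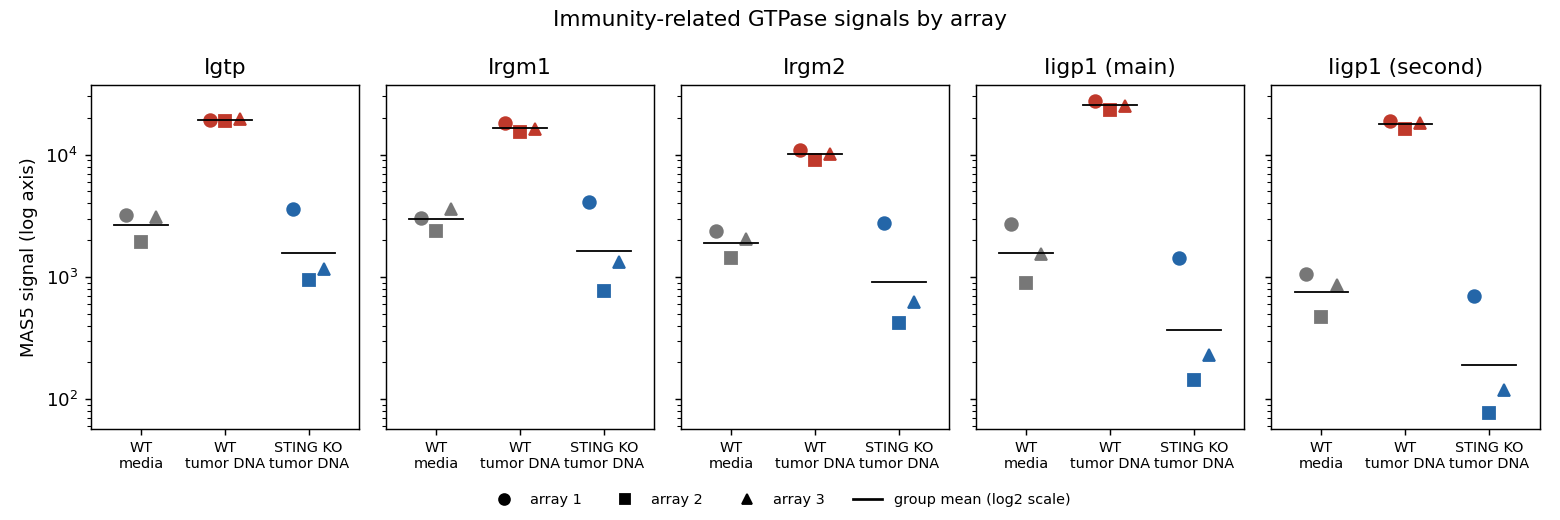
MAS5 signal on a log axis for each of the 5 probe sets on each of the 9 arrays, by group, with the marker shape giving the array number and the bar the group mean taken on the log2(signal + 16) scale. In all panels the WT tumor DNA arrays sit above the others, and knockout array 1 sits above knockout arrays 2 and 3.

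All 4 members were called higher, at an adjusted p below 0.05, beside 9.94% of all genes called higher in this comparison. In all 4 the 3 stimulated arrays lay above the 3 media arrays, beside 15.0% of all genes. The median member differed by 2.65 and the median of all genes by -0.20. Taken by array number, the rises were 2.58, 3.27 and 2.67 for Igtp, 2.58, 2.67 and 2.16 for Irgm1, 2.20, 2.67 and 2.31 for Irgm2, and 3.34, 4.67 and 4.01 for Iigp1. The calls of Irgm1, Irgm2 and Iigp1 ended without the arrays numbered 3, at limma adjusted p-values of 0.059, 0.090 and 0.052 with 2 arrays per group, while the rises stayed at 2.63, 2.43 and 4.01. The spread in that fit again included knockout arrays.

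The stimulated wild-type arrays differed little in the members and much in interferon beta, a cytokine that induces them. Ifnb1 ran from 5213 to 21593 over these arrays, a 4.14-fold range, with array 1 highest. Over the same arrays the highest signal exceeded the lowest by 1.05-fold for Igtp, 1.19-fold for Irgm1, 1.20-fold for Irgm2 and 1.19-fold for Iigp1. In media Ifnb1 read 47.3 to 72.4, beside medians of 61.0 to 63.8 on those arrays. There the brightest probe set of each member already read 896 to 3619.6, and the second Iigp1 probe set 475 to 1055. Array 2 was the lowest media array for all 4.

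Under the same stimulus all 4 GTPase genes were lower in the knockout than in the wild type. This comparison asks which transcripts differ between the genotypes under the stimulus. Without knockout media arrays, a smaller response and a level already lower before the stimulus cannot be told apart. Sting1 itself read 246, 336 and 327 in the knockout arrays and 1061 to 2258 in the stimulated wild type, a difference of -2.17 ± 0.35 (limma adjusted p = 0.0016), and no source used here places its probe sets inside or outside the disrupted sequence. Igtp read 3574, 946 and 1154 in knockout arrays 1, 2 and 3. Its level differed from that of stimulated wild type by -3.59 ± 0.42 (limma adjusted p = 0.00037). Irgm1 read 4134, 769.8 and 1330.4, a difference of -3.34 ± 0.48 (limma adjusted p = 0.00092). In each of these genes array 1 stood above arrays 2 and 3, and all 3 arrays stood below every stimulated wild-type array.

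Irgm2 read 2741, 423 and 624 in the knockout, a difference of -3.45 ± 0.55 (limma adjusted p = 0.0015). Iigp1 read 1419, 144 and 231, a difference of -6.04 ± 0.69 (limma adjusted p = 0.00035), or 65.8-fold, the 8th most negative of all genes tested. The regulatory members differed 10.1-fold to 12.0-fold. On the second Iigp1 probe set the knockout arrays read 698, 77.4 and 119.5 and the difference was -6.42 ± 0.61 (limma adjusted p = 0.00013 over 27022 probe sets). No detection calls were used here, so it was not tested whether the low signals of either Iigp1 probe set on knockout arrays 2 and 3 exceed background. The medians of all probe sets on knockout arrays 2 and 3 were 71.2 and 61.7, so the second Iigp1 probe set lay near the median on array 2 and above it on array 3.

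All 4 members were called lower, beside 9.73% of all genes called lower, and all 4 had groups that did not overlap, beside 14.7% of all genes. The median member differed by -3.52 and the median of all genes by 0.20. By array number the differences were -2.41, -4.29 and -4.07 for Igtp, -2.14, -4.29 and -3.59 for Irgm1, -1.99, -4.38 and -3.98 for Irgm2, and -4.27, -7.18 and -6.67 for Iigp1. The number 1 arrays thus gave the smallest difference in each member. Without knockout array 1 the differences were -4.18 for Igtp, -4.01 for Irgm1, -4.25 for Irgm2 and -6.99 for Iigp1, and without knockout array 2 they were -3.23, -2.81, -2.92 and -5.41. The Irgm2 call ended without the arrays numbered 3 (-3.19, limma adjusted p = 0.053).

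**Figure D2:**
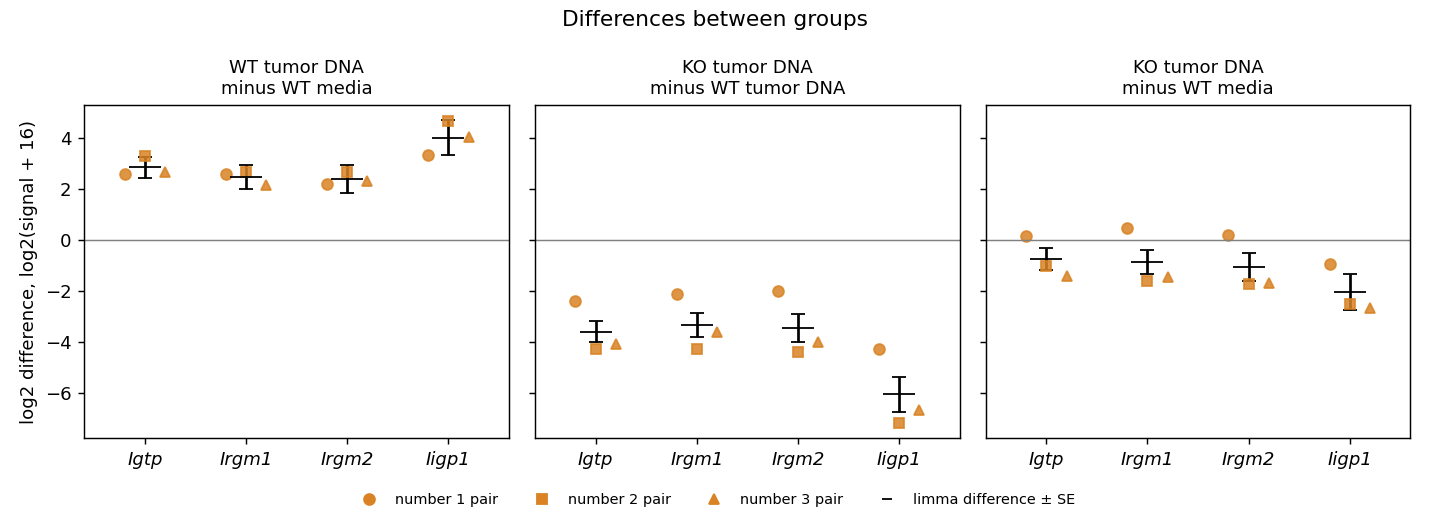
Log2 difference between groups for the 4 members in the 3 comparisons, on the log2(signal + 16) scale. Black bars are the limma difference with its SE (n = 3 per group) and orange points the difference between arrays of the same number. Iigp1 differs most in each panel, and number 1 gives the smallest difference against stimulated wild type.

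Stimulated knockout cells were also set against wild-type cells in media. With all arrays 0 of the 4 members were called, beside 0.262% of all genes called lower and 0.167% called higher, and the limma test gave unadjusted p-values of 0.10 for Igtp, 0.099 for Irgm1, 0.081 for Irgm2 and 0.015 for Iigp1. The differences were -0.75 ± 0.42, -0.87 ± 0.48, -1.06 ± 0.55 and -2.03 ± 0.69 (limma adjusted p = 0.77, 0.76, 0.73 and 0.46), and the groups overlapped in each, where 7.88% of all genes had every knockout array below every media array. With the array number as a block the adjusted p-values were 0.35, 0.35, 0.27 and 0.074, again with 0 members called, while the calls over all genes went from 33 to 90 lower and from 21 to 86 higher.

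This comparison turned on knockout array 1. Its signals of 3574 for Igtp, 4134 for Irgm1 and 2741 for Irgm2 exceeded every WT media array, while Iigp1 at 1419 lay between the media arrays. In knockout arrays 2 and 3 each member lay below every media array. The share of all genes with this split of 2 against 3 arrays was not counted. Without array 1 all 4 members were called lower than in media, by -1.34 ± 0.22 for Igtp, -1.54 ± 0.25 for Irgm1, -1.86 ± 0.24 for Irgm2 and -2.98 ± 0.39 for Iigp1 (limma adjusted p = 0.024, 0.023, 0.0098 and 0.0094, n = 2 knockout and 3 media arrays), beside 0.731% of all genes called lower. Array 1 was the highest knockout array in these same members, so leaving it out could only lower their knockout means, and the SE fell too. These calls describe the dependence on array 1 and are no separate test of a lower level. Without knockout array 2 or 3 no member was called, and the differences were -0.34 to -0.53 and -0.53 to -0.80 in the regulatory members and -1.40 and -1.71 in Iigp1. Since no knockout media arrays were analysed, genotype and stimulus cannot be told apart in this comparison.

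**Figure D3:**
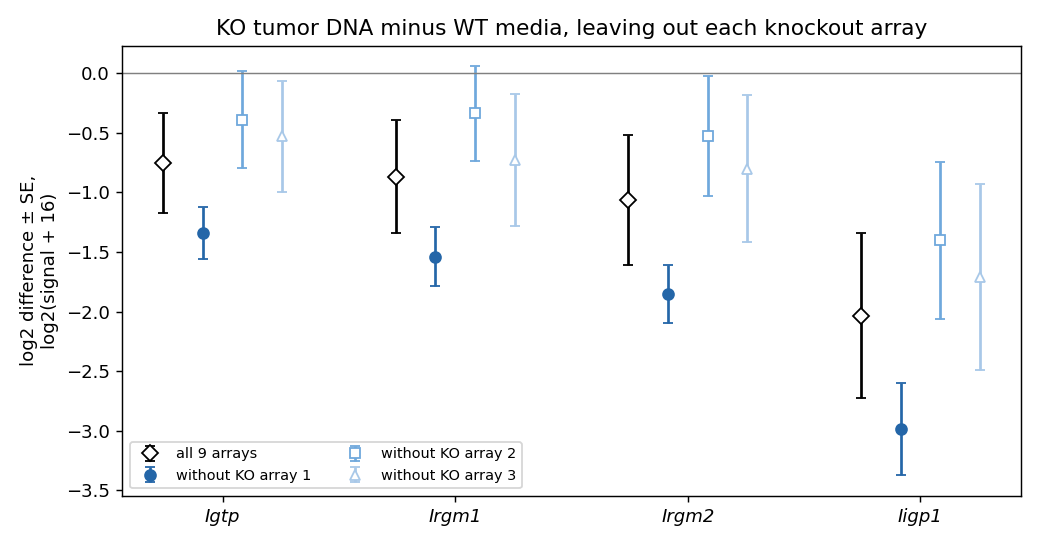
Log2 difference (± SE) of STING knockout cells with tumor DNA from wild-type cells in media, for the 4 members, with all 9 arrays and without each knockout array in turn, on the log2(signal + 16) scale. Filled markers have a limma adjusted p below 0.05, and they appear only where knockout array 1, the highest knockout array in each member, is left out.

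Within the knockout group array 1 exceeded the mean of arrays 2 and 3 by 1.76 in Igtp, 2.01 in Irgm1, 2.38 in Irgm2 and 2.85 in Iigp1. Of all genes tested 3.29% exceeded it by more than 1 log2 unit, and the median gene differed by -0.05. Genes that moved with the members on this array were the related GTPases Ifi47 (2.47) and Gm4951 (1.91) and the transcription factor Irf1 (1.96). The other 2 family genes tested were lowest there, Irgq at 244 beside 289.8 and 287, and Irgc1 at 19.9 beside 90.02 and 54.8. All 6 guanylate-binding proteins tested were also highest on this array among the knockout arrays, beside 34.1% of all genes. Ifnb1 was not (43.3 on array 1, the lowest of the 3), nor was Sting1, whose signal of 246 was the lowest of the 9 arrays. Over all genes knockout array 1 correlated at r = 0.955 and 0.968 with the other knockout arrays and at 0.960 to 0.972 with the media arrays. The 3 arrays numbered 1, 1 of each group, also shared high signals of the spiked control BioB, at 307 to 759 against 87.3 to 239 elsewhere. All 4 macrophage markers tested were highest on array 1 in each group, beside 38.2%, 27.8% and 34.1% of all genes. Their median excess over arrays 2 and 3 was 0.88 in media, 0.47 in stimulated wild type and 0.70 in the knockout. In the same order of groups it was 1.61, 1.71 and 0.57 for neutrophil markers. It was 0.97, 1.26 and 0.12 for mast cell and basophil markers, and -1.07, -1.66 and -0.87 for B cell markers. The part of the control's difference or of such cells in the members' signals was not tested. In the wild-type groups the excess of array 1 in the regulatory members ran from -0.01 to 0.48, and in Iigp1 it was 1.20 in media and 0.20 with DNA.

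The sizes of change were compared between members. The change of Iigp1 exceeded that of Igtp by 1.17 ± 0.28 (SE), that of Irgm1 by 1.54 ± 0.39 and that of Irgm2 by 1.62 ± 0.25 with tumor DNA in wild type. In the knockout against stimulated wild type Iigp1 was lower by a further 2.45 ± 0.38, 2.70 ± 0.28 and 2.59 ± 0.16. Each of these gave p = 0.10 in a 2-sided exact permutation test of the within-array difference, the smallest that 3 arrays against 3 can give, and 0.18 after adjustment over 18 tests (6 pairs in 3 comparisons). The rise of Igtp exceeded that of Irgm2 by 0.45 ± 0.09 (exact permutation p = 0.10), and Irgm1 and Irgm2 differed in their rise by 0.08 ± 0.15 (exact permutation p = 1). With this exact test no pair could pass an adjusted p of 0.05. How far a probe set also reads transcripts of a related GTPase was not tested.

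**Figure D4:**
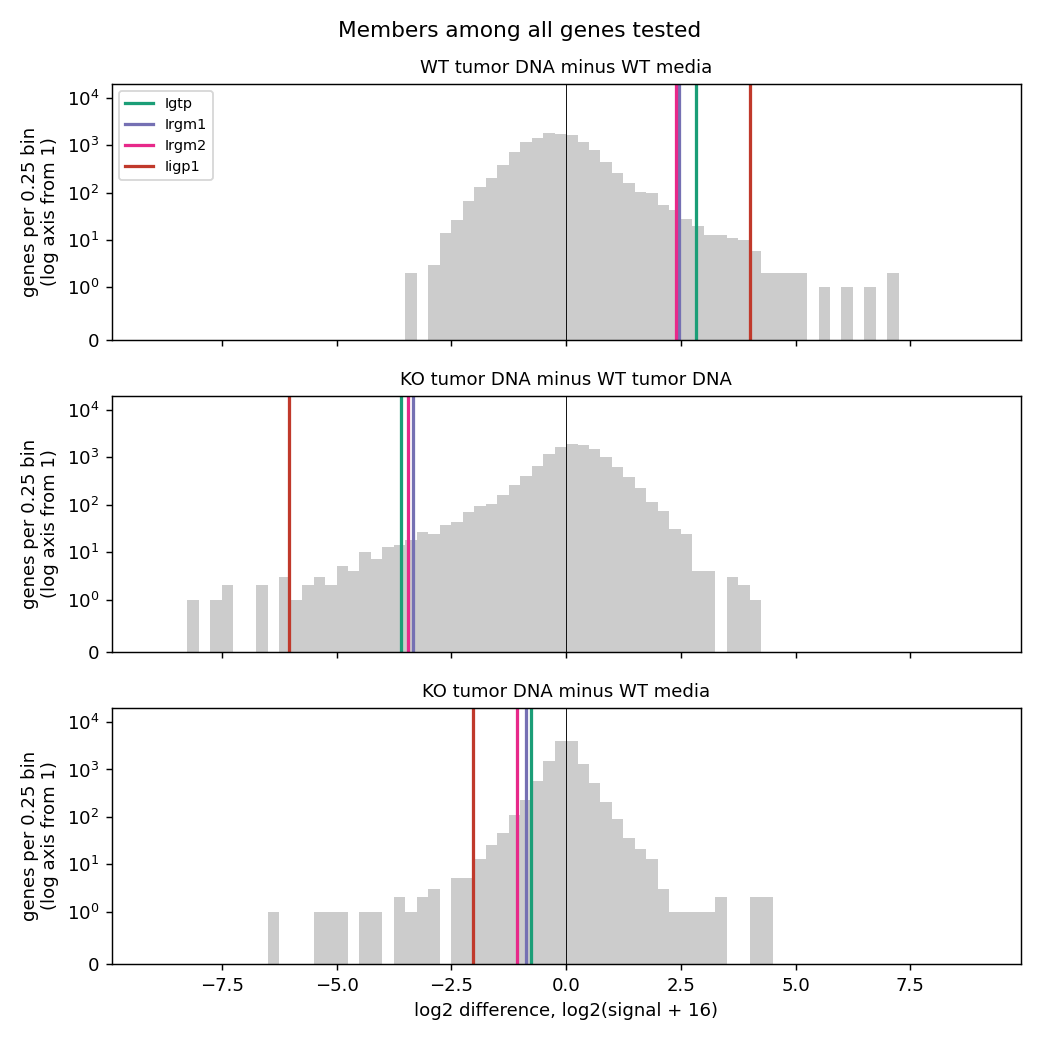
Number of genes in each 0.25-wide bin of log2 difference (vertical axis logarithmic from 1) for the 12586 genes tested in each comparison, with the 4 members as coloured lines. The members lie in the upper tail with tumor DNA in wild type, in the lower tail in the knockout under DNA, and on the lower side of the knockout against media.

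The members varied in step across the 9 arrays, with r = 0.985 to 0.994 between members and 0.926 to 0.987 for their deviations from the group means. These values describe 9 arrays that share groups and numbers. The largest deviation of each member was on knockout array 1, from 1.17 in Igtp to 1.90 in Iigp1, so the correlations of deviations lean on that array. The genes most like Igtp were Tnfsf10, a death-receptor ligand (r = 0.997), the helicase Ddx60 (0.997), Tmem229b, Mx1 and Tlr3 (each 0.995). Irgm1 was most like Oas2, Pnp, Mx1, Tdrd7 and Trafd1 (0.998 to 0.997), and Irgm2 was most like Dtx3l (0.9995), Rnf213, Oas2, Trafd1 and the RNA sensor Ifih1 (0.996 for the last). Iigp1 was most like Ddx60, the immunoproteasome subunit Psmb9, Dtx3l, Gbp3 and Tnfsf10 (0.993 to 0.992). Among all genes the other members ranked 9th to 47th in likeness to each other.

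Among other genes of the family that could be read singly, Gm4951, which lies near Iigp1 on chromosome 18, rose with tumor DNA by 3.38 ± 0.59 and was lower in the knockout by -4.62 ± 0.59 (limma adjusted p = 0.0026 and 0.00056). Ifi47 (Irgd) read 5574, 3282 and 5974 in media and 20824 to 24914 with DNA, a rise of 2.25 ± 0.60 (limma adjusted p = 0.017), and was lower in the knockout by -3.22 ± 0.60. Irgq, a relative outside the interferon-induced group, went the other way, with -1.09 ± 0.25 with DNA (limma adjusted p = 0.0097) and 0.95 ± 0.25 in the knockout. Irgc1, known from testis, read 10.4 to 90.02 over the arrays and differed by -0.04 ± 0.48 with DNA (limma adjusted p = 0.96). Of these 4 tested genes 2 rose and 1 fell. Guanylate-binding proteins, a related GTPase family that works beside these proteins on vacuoles, rose in 5 of 6 genes and were lower in the knockout in 6 of 6, beside 9.94% and 9.73% of all genes, with Gbp2 at 2.13 ± 0.31 and -2.08 ± 0.31, Gbp8 at 3.26 ± 0.52 and -3.42 ± 0.52, and Gbp2b at 2.49 ± 0.99 in wild type (limma adjusted p = 0.077).

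Interferon genes and the signalling between interferon and the GTPase promoters were read next. Of 10 interferon genes on the array 8 passed the filter. Of these, Ifna2, Ifna4, Ifna5, Ifna9 and Ifnab read 1.40 to 58.96 in media and in the knockout and passed through their stimulated wild-type arrays, so no count of calls is given for this list. Ifnb1 differed by 7.19 ± 0.42 with DNA and Ifna2 by 7.16 ± 0.73, both from low signals whose log2 values depend on the offset, and Ifna1 by 0.05 ± 0.43 (limma adjusted p = 0.94). Ifng, which encodes the interferon best known for inducing this family, did not pass the filter and was not tested. Its signals were 3.03 to 22.5 in media, 44.0 to 174 in stimulated wild type and 1.67 to 5.48 in the knockout. The 174 was on stimulated array 1, above that array's median of 55.2, and the other 2 stimulated arrays read 65.7 and 44.0 beside medians of 66.2 and 64.9. Of 13 receptor and signalling genes 7 rose with DNA, beside 9.94% of all genes, and 8 were lower in the knockout, beside 9.73%. In the other direction 1 fell with DNA and 1 was higher in the knockout, a smaller share than the 23.6% and 21.8% of all genes. The kinase gene Jak2 rose by 1.47 ± 0.15, the feedback inhibitor Socs1 by 3.68 ± 0.40 and Irf1 by 1.97 ± 0.52 (limma adjusted p = 0.017). Irf9, a transcription factor of the type I interferon response, differed by 0.63 ± 0.26 (limma adjusted p = 0.084) with DNA and was lower in the knockout by -1.23 ± 0.26 (limma adjusted p = 0.0057). Irf8 differed by -0.02 ± 0.28. The gene that fell was Ifngr1, a chain of the interferon gamma receptor, at -1.20 ± 0.25 (limma adjusted p = 0.0061), named after its value was seen.

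Genes that work with these GTPases at vacuoles were read as separate lists. Of 19 autophagy genes, whose ATG8 conjugation branch is needed for effectors to be placed correctly, 0 rose and 6 fell with DNA, or 31.6% of the list beside 23.6% of all genes called lower. Atg5 differed by -0.93 ± 0.15 and Atg9a by -0.94 ± 0.21 (limma adjusted p = 0.0022 and 0.0072), and Becn1 by 0.03 ± 0.11 (limma adjusted p = 0.85). In the knockout 5 of the 19 (26.3%) were higher than in stimulated wild type, beside 21.8% of all genes, so both counts lay near the share of all genes. Of 11 ubiquitin, galectin and receptor genes 7 rose, beside 9.94% of all genes, and 0 fell. Those with the smallest adjusted p were Lgals9 (1.78 ± 0.20) and the ubiquitin ligase Trim21 (2.17 ± 0.26), and Calcoco1 differed by -0.25 ± 0.27 (limma adjusted p = 0.51). In the knockout 6 were lower, beside 9.73%.

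**Figure D5:**
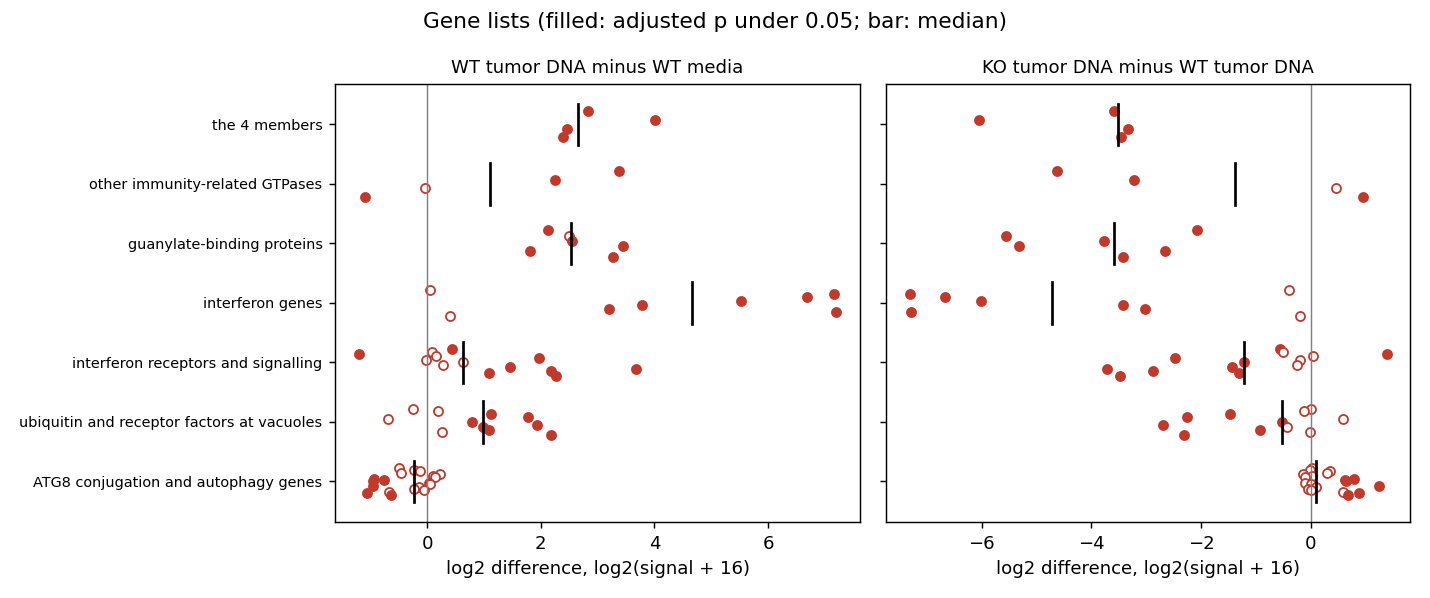
Log2 difference of each gene of 7 lists in the wild-type tumor DNA comparison and in the knockout comparison under DNA, on the log2(signal + 16) scale. Filled points have a limma adjusted p below 0.05 and the bar is the list median. The 4 members and the guanylate-binding proteins lie to the same side in each panel, and the autophagy list has its median near 0, at -0.24 and 0.09.

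Markers of other cells were read beside the members, and the part of such cells in the results was not tested. In bulk cultures fewer cells of a type and less RNA per cell cannot be told apart. Of 8 dendritic cell markers 0 were called in any comparison (Cd209a at -0.01 ± 0.55 with DNA), with 0 called in the limma fit also for the 7 neutrophil, 5 mast cell and basophil, and 3 B cell markers in wild type. Of the T and NK cell markers on the array 6 of 8 did not pass the filter, and the summed signal of the other 2 was 84.9 to 109 in media, 164 to 219.6 with DNA and 109.9 to 132 in the knockout. Cd247 rose by 1.15 ± 0.27 and Prf1 differed by 0.27 ± 0.27. Plasmacytoid markers summed to 5228 to 7816 in media, 18905.5 to 24579.7 with DNA and 3081 to 6764 in the knockout, with Bst2, itself an interferon-induced gene, up by 1.85 ± 0.30 and Tcf4 by 1.25 ± 0.26, and Siglech at -0.68 ± 0.45. Macrophage markers summed to 27940.0 to 42650 in media, 42888 to 57868.5 with DNA and 25927 to 38078.5 in the knockout, with Fcgr1 up by 2.10 ± 0.46 and Csf1r at 0.06 ± 0.12. In the knockout 3 of 5 mast cell and basophil, 2 of 4 macrophage, 2 of 4 plasmacytoid, 1 of 2 T and NK cell and 1 of 7 neutrophil markers were lower than in stimulated wild type, beside 9.73% of all genes. Neutrophil sums spread widely within the wild-type groups, from 16360 to 62756 in media.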

How the data were processed

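Transcript signals were measured on 9 one-colour Affymetrix arrays. The authors deposited linear signal intensity values from MAS5, per the submitters' processing notes; its version is not given in the sources used here. The values were scaled alike, with a mean between the 2nd and 98th percentiles of 500.0 on each array. Of 45101 probe sets 64 were controls, 34945 had 1 gene symbol, 932 several and 9160 none in the platform annotation. Signals were analysed as log2(signal + 16). Probe sets above the 40th percentile of mean log2 value (5.67) passed, and each gene was represented by its brightest one on average. All 9 arrays were fitted with limma 3.58.1 in R 4.3.3 (lmFit, eBayes with intensity trend), 2-sided, with Benjamini-Hochberg adjustment over 12586 genes. The number of arrays limits the precision. The fit was tested on simulated data for 12586 genes: with tumor DNA against media it called 25 of 50 genes changed by 1 log2 unit, 41 of 50 by 2, 49 of 50 by 3 and 50 of 50 by 4. Simulated noise was independent between arrays and had the same spread per gene in all groups, unlike these data. The counts therefore do not tell how well the fit finds changes in the members. Promoter sequences and gene order come from RefSeq for GRCm38.p6; no protein sequences were used here.

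Deviations of same-numbered arrays correlated at r = 0.17 to 0.49 over 9 pairs, against -0.42 to 0.14 over 18 pairs of different number. The numbers, taken from the sample titles, were not used in the main fit, whose SEs and p-values treat the arrays as unpaired. A fit with the numbers as a block was an alternative. The other alternatives were the offset, the filter, the normalization, the variance trend, the handling of probe sets, the groups fitted and leaving out arrays. Besides the members and the other family genes, the text names in each list the 2 called genes with the smallest adjusted p and the 1 with the largest, a few interferon genes and regulators, and the 5 genes most correlated with each member. The members and lists were chosen with earlier results of these data known.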

Additional observations from a re-analysis of the deposited data

How the results depend on the processing

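Each member was recomputed under 22 alternatives per comparison, and no member's difference changed sign in any. Offsets of 64 and 0, no filter, quantile normalization, median centring, no variance trend, mean of probe sets, every probe set tested, and the fit of only the 2 groups compared changed no member's call. With the replicate block the same 4 members were called with tumor DNA and 4 in the knockout under DNA (Igtp 2.84 and -3.59, Irgm1 2.47 and -3.34, Irgm2 2.39 and -3.45, Iigp1 4.01 and -6.04) and 0 against media. Leaving out arrays, the members called ranged from 1 to 4 with tumor DNA and from 0 to 4 for the knockout against media. The values ranged from 2.32 to 2.63 (Irgm1), 2.18 to 2.55 (Irgm2) and 3.61 to 4.41 (Iigp1) with tumor DNA, from -4.25 to -2.92 for Irgm2 in the knockout under DNA, and against media from -1.34 to -0.39 (Igtp), -1.54 to -0.34 (Irgm1), -1.86 to -0.53 (Irgm2) and -2.98 to -1.40 (Iigp1). Without all arrays numbered 1, Irgm2 (-1.70, limma adjusted p = 0.040) and Iigp1 (-2.59, 0.018) were called against media. Over all genes, called counts with tumor DNA were 1251 higher and 2973 lower, and 479 and 1013 without number 3, 785 and 1613 without number 2. For the knockout against stimulated wild type they were 2746 and 1224, and 850 and 529 without number 3. For the knockout against media they were 21 and 33, against 1 and 3 without number 3, 39 and 92 without knockout array 1, 11 and 19 with only the 2 groups fitted and 86 and 90 with the replicate block. Testing every probe set gave 2309 and 4975, 4541 and 2255, and 51 and 52 probe sets in these comparisons. Quantile normalization gave 1369 higher and 2202 lower with tumor DNA, with a median gene of -0.10. The cause of these differences between fits was not tested. Signals near the array median limit the low Iigp1 values of the knockout.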
